A study of Mus musculus with 2 samples.

Results

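The genes described here make, clear and sense retinoic acid in adult mouse heart. They are 9 of the 55536 annotated genes in the tables, found by symbol (Cyp26b1, Aldh1a1, Aldh1a2, Rdh10, Dhrs3, Stra6, Rara, Rarb and Rarg). Total RNA was sequenced from whole-tissue heart samples. The mice were B6CASTF1/J females, an F1 hybrid strain, aged 2 months, with no treatment or genetic change named in the labels. Both animals belong to 1 group (n = 2), with 1 library each, made from 300 ng of RNA after ribosomal RNA reduction and with ERCC spike-ins, synthetic RNAs of known amount. The labels number them as separate biological replicates with a biosample each, under a donor identifier that is the same for both. Reads assigned to genes numbered 41862417 for animal 1 and 41790009 for animal 2. With 1 group there is no contrast of conditions, and the difference between 2 libraries has no replicate check. The genes were put together because Cyp26b1 was already known to be uneven between these libraries, so all ratios between animals below are descriptions and carry no test.

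Retinoic acid is the active form of vitamin A. Retinol bound to its plasma carrier enters cells through the receptor STRA6, is oxidised to retinal by RDH10, and is turned into retinoic acid by retinaldehyde dehydrogenases of the ALDH1A family. DHRS3 works against RDH10 by reducing retinal to retinol, and CYP26 enzymes break retinoic acid down. In the nucleus retinoic acid binds the receptors RARA, RARB and RARG, which pair with RXR receptors on response elements that are direct repeats of a hexamer. In the embryo the pathway patterns the inflow part of the heart, with Aldh1a2 in the epicardium and inflow region as a main source.

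Response element letters were searched in RefSeq promoter windows on GRCm38.p6 (mm10), each 250 bases before to 50 bases after an annotated start. The search took as a site the hexamer AGGTCA, its variant forms GGGTCA and also AGTTCA, and lastly the form GGTTCA. A DR5 is any pair of these in direct repeat with 5 bases between them, on either strand. Of 32851 windows of this length 32 held a DR5 (0.0974%). Among 61 of the 84 retinoid genes with a window, Rarb and Cyp26a1 held one, both long known as direct targets of retinoic acid, and Cyp26b1 did not. The table held 18 windows for 8 of the 9 genes, all but Rdh10, and these included 1 DR5 and no direct repeat with 2 bases or 1 base between the same hexamers (0.268% and 0.222% of all windows). The windows of Rarb (chr14:16575427-16575726, minus strand), Cyp26a1 (chr19:37697558-37697857, plus strand), Cyp26b1 (chr6:84593761-84594060, minus strand) and the inner start of Rarg (chr15:102246451-102246750, minus strand) are shown because the level, the start or the evenness of these genes is described below. Sequences are from RefSeq and run 5′ to 3′ on the strand of the gene, with DR5 letters in capitals.
Rarb: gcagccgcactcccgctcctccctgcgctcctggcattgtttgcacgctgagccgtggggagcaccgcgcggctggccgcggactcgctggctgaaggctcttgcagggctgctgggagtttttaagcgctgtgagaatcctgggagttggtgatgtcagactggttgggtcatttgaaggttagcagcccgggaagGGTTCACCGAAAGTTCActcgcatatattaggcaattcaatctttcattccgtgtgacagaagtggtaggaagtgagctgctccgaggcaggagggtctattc
Cyp26a1: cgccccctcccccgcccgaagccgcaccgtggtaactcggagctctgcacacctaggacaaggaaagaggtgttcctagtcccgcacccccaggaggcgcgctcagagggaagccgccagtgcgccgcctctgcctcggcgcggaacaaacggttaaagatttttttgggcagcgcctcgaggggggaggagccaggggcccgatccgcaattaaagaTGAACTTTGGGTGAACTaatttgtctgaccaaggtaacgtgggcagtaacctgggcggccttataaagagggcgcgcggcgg
Cyp26b1: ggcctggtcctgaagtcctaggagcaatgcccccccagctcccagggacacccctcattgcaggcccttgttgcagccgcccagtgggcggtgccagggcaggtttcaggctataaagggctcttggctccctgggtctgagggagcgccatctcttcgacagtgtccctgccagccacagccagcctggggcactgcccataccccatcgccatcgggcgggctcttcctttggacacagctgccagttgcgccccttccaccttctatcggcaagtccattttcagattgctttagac
Rarg: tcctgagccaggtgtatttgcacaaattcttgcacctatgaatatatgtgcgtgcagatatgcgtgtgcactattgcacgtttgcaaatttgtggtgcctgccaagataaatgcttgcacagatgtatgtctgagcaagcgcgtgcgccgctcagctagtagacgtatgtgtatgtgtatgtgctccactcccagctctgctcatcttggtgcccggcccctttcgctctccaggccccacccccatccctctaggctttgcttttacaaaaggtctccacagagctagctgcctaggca
The Rarb element reads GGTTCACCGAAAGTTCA and lies 53 to 37 bases upstream of the RefSeq start, at 16575513 to 16575529 on chromosome 14. The Cyp26a1 element reads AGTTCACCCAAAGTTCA on the minus strand and lies 32 to 16 bases upstream of its start. A window without these letters says nothing about binding elsewhere.

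Levels are given in TPM, which scale each transcript to its length and to all transcripts of the library and so can be compared between genes. Dhrs3 (chromosome 4, 144892827 to 144928209) was the highest of the 9 genes, at 43.8 TPM in animal 1 and 61.0 TPM in animal 2 (52.4 ± 12.2, SD, n = 2). It made up 58.6% and 57.7% of the summed TPM of all 9. Rdh10 (chromosome 1, 16105774 to 16133734), the enzyme it opposes, stood at 1.30 and 1.70 TPM (1.5 ± 0.283). RNA of the retinal reductase was thus 33.7 times that of the retinol dehydrogenase in animal 1 and 35.9 times in animal 2. A second quantification of the same reads gave Dhrs3 at 76.6 and 92.4 TPM and Rdh10 at 1.63 and 1.76. The gap was wider there, so its size depends on the quantification. Stra6 (chromosome 9, 58063788 to 58153996) was near the detection limit, with 5 and 13 reads (0.050 and 0.150 TPM), where a count of 0 would allow up to 3 reads, or 0.0717 and 0.0718 CPM (reads scaled to all gene reads of the library).

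**Figure D1:**
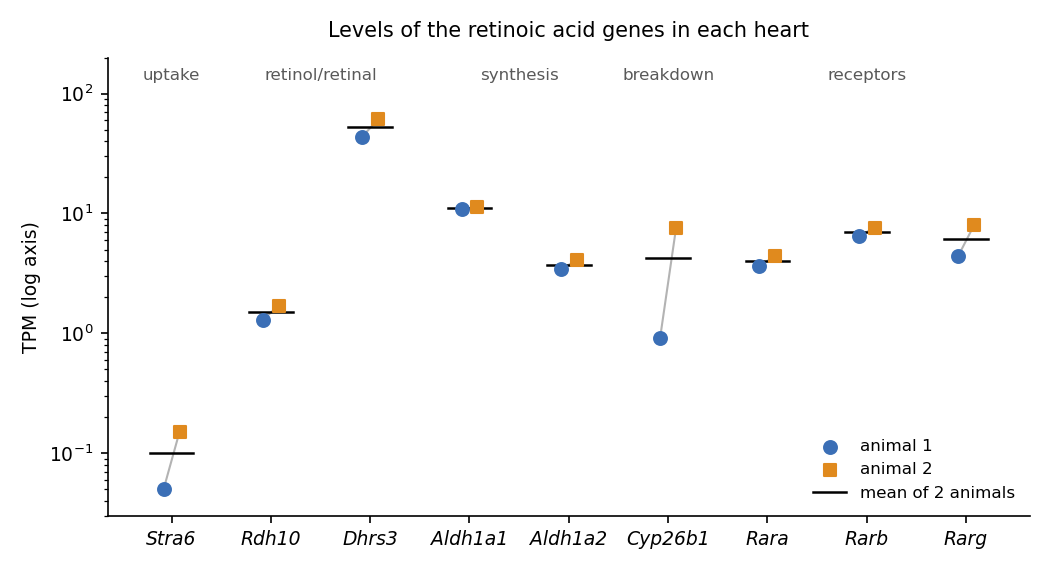
TPM of each of the 9 genes on a log axis, ordered by role, with a circle for animal 1, a square for animal 2 and a line for their mean. Dhrs3 lies highest and Stra6 lowest in both hearts, and Cyp26b1 shows the widest gap, from 0.920 to 7.53 TPM.

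Of the synthesis genes, Aldh1a1 (chromosome 19, 20492715 to 20643465) was second in both animals, at 10.8 and 11.3 TPM (11.1 ± 0.361). Aldh1a2 (chromosome 9, 71215789 to 71296243) stood at 3.41 and 4.07 TPM (3.74 ± 0.467). Both values of Aldh1a1 lay above both of Aldh1a2. The third gene of the family, Aldh1a3, was at 0.230 and 0.330 TPM with 28 and 34 reads.

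The receptors lay close together. Rarb (chromosome 14, 16430839 to 16819156) was at 6.42 and 7.62 TPM (7.02 ± 0.849), Rarg (chromosome 15, 102234938 to 102257517) at 4.39 and 7.94 TPM (6.17 ± 2.51) and Rara (chromosome 11, 98927818 to 98974942) at 3.62 and 4.45 TPM (4.04 ± 0.587). In the gene tables the order of Rarb and Rarg turned between animals, with Rarb at 44.5% and Rarg at 30.4% of receptor TPM in animal 1 and 38.1% and 39.7% in animal 2. Rara was the lowest of the receptors in both animals there, and its range overlapped that of Aldh1a2. The RXR partners together were 3.87 times the RAR genes in animal 1 and 3.26 times in animal 2. In the second quantification, made from the same reads, Dhrs3 was at 84.5 TPM, Aldh1a1 at 12.8, Rarb at 9.67, Rarg at 8.06 and Rara at 6.03 TPM, so the order of these means was kept. The order within each animal was not: Rarb stood above Rarg in both (8.93 and 5.95, then 10.4 and 10.2 TPM), and Rara, at 6.13 TPM, above Rarg in animal 1.

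Cyp26b1 (chromosome 6, 84571414 to 84593908, minus strand), whose enzyme clears retinoic acid, counted 145 reads for animal 1 against 1078 for animal 2, or 0.920 and 7.53 TPM (4.23 ± 4.67). By TPM it ranked 8 of 9 in animal 1, below Rdh10, and 5 of 9 in animal 2, above Rara and Aldh1a2. The reads were scaled by TMM (trimmed mean of M values), which sets library sizes from the bulk of genes, and ratios are animal 2 over animal 1. On this scale Cyp26b1 stood at 3.56 CPM in animal 1 and 25.1 in animal 2, a ratio of 7.06 (95% counting interval 5.93 to 8.45, exact binomial). This was the highest ratio among 12453 genes with at least 100 reads and an assignment spread, the posterior SD of their reads, below 10%. Among all 16133 genes with at least 20 reads, 0.112% had a higher ratio. The ratio is the value for which the gene was chosen, so its rank supports nothing further.

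None of the other 7 genes with at least 20 reads passed 2-fold. Over all 16133 genes with at least 20 reads, 0.967% were at least 2-fold higher in animal 2 and 1.77% at least 2-fold higher in animal 1 (156 and 285 genes, or 203 and 226 when scaled by total gene reads). Among the 12453 genes with 100 reads or more the shares were 0.193% and 0.177%. With Cyp26b1 counted, 1 of 8 genes was past 2-fold. The other 7 had a median log2 ratio of 0.09, against -0.0002 over all genes, and their ratios ran from 0.924 to 1.63. Stra6, with 18 reads in all, fell below the minimum, and its ratio of 2.47 had a counting interval from 0.826 to 8.84.

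Next to Cyp26b1, Rarg was the most uneven of these 7, with 382 reads in animal 1 and 656 in animal 2. Its ratio was 1.63 (1.44 to 1.85), below 2-fold but outside the range of 0.753 to 1.33 that holds the central 95% of the 12453 genes. Dhrs3 had 2636 and 3210 reads and a ratio of 1.16 (1.1 to 1.22), inside that range. The remaining 5 genes had counting intervals that included 1. Their ratios were 1.09 for Rdh10 (168 and 193 reads), 1.06 for Rara (365 and 408), 1.03 for Rarb (648 and 704), 1.02 for Aldh1a2 (274 and 294) and 0.924 for Aldh1a1 (730 and 710). TPM is shifted between the libraries by a median log2 ratio of 0.22 over all genes, and on it Aldh1a1 turned to a ratio of 1.05.

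**Figure D2:**
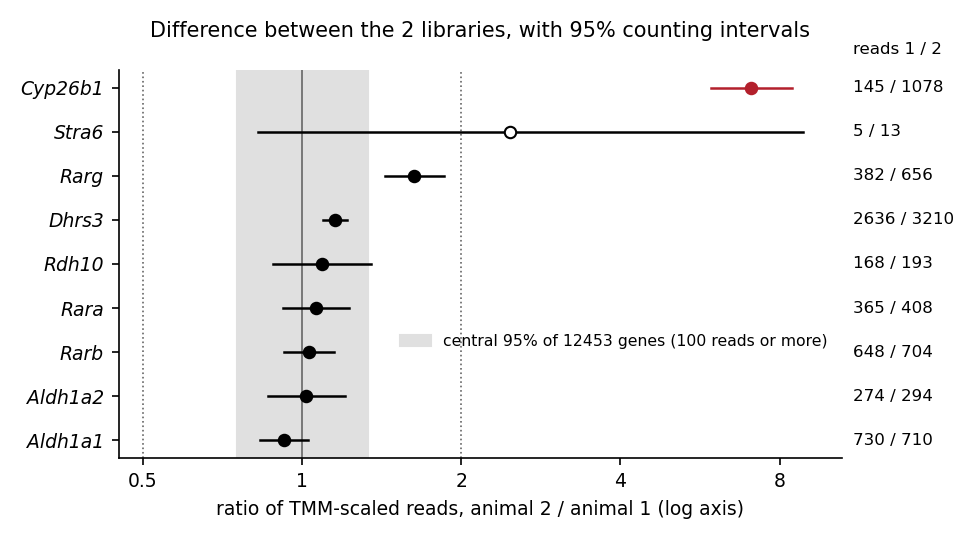
Ratio of TMM-scaled reads, animal 2 over animal 1, on a log axis for each gene, with bars for the 95% counting interval, an open point for the gene under 20 reads, and reads per animal at the right. Grey marks 0.753 to 1.33; Cyp26b1 at 7.06 and Rarg at 1.63 lie outside it with their whole intervals.

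Because scale cancels within a library, the RNA of synthesis and breakdown can also be set against each other in each heart. Aldh1a1, Aldh1a2 and Aldh1a3 summed to 14.5 TPM in animal 1 and 15.7 in animal 2, and Cyp26a1, Cyp26b1 and Cyp26c1 to 1.09 and 7.65 TPM. Synthesis RNA was thus 13.3 times breakdown RNA in animal 1 and 2.06 times in animal 2 (13.5 and 2.04 in the second quantification, from the same reads). The synthesis sums were close, so this change mostly restates the Cyp26b1 difference for which the genes were chosen. Cyp26b1 was 84.4% of CYP26 TPM in animal 1 and 98.4% in animal 2. Cyp26a1, the relative with a DR5 in its window, had 6 and 7 reads, and Cyp26c1 had 4 and 0. RNA levels do not measure enzyme activity or retinoic acid.

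The tables also assign reads to single transcripts. For Cyp26b1, with 5 annotated transcripts, the first table gave all reads to Cyp26b1-204, which encodes 512 codons, and Cyp26b1-205, which begins at another first exon and encodes 321. Cyp26b1-204 had 52.8 reads (assignment SD 9.58) in animal 1 and 559 (28.4) in animal 2, and Cyp26b1-205 had 92.2 (9.84) and 519 (28.5). Both were thus higher in animal 2, at ratios of 10.1 and 5.35, and at 9.32 and 5.30 in the second table. The share of Cyp26b1-204 was 35.2% of the gene's TPM in animal 1 and 50.7% in animal 2 (44.2% and 55.6% in the second table). These transcripts start at 84588638 and 84587680 on chromosome 6. Cyp26b1-201 and Cyp26b1-202, which start near the RefSeq start at 84593810 and its window shown above, were listed at 0 reads in both tables and both animals. Their assignment SDs in the first table were 4.81 and 6.92 reads for Cyp26b1-201 and 4.87 and 6.16 for Cyp26b1-202. The second table also gave Cyp26b1-203 4.6e-06 and 13.4 reads.

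The main transcripts of Rarg, from its inner and outer starts, had unlike ratios. Rarg-202, which starts at 102246500, the RefSeq start of the Rarg window shown above, had 238 reads (assignment SD 21.7) in animal 1 and 497 (25.8) in animal 2, a ratio of 1.98. Rarg-201, which starts further upstream at 102257517, had 136 (24.6) and 147 (30.7), a ratio of 1.03. The second table gave 1.98 and 1.06. Rarg-205, a partial form from the outer start, had 0.99 (5.40) and 7.46 (8.55) reads in the first table. These SDs exceed the reads, so that table does not settle its direction. In the second table Rarg-205 was higher in animal 2, at 7.53 and 29.8 reads. The receptor forms differ at their amino end, with 447 codons in Rarg-202 and 458 in Rarg-201, and Rarg-202 was 55.8% and 71.4% of the gene's TPM. With 1 library per animal, no test of this difference was made.

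**Figure D3:**
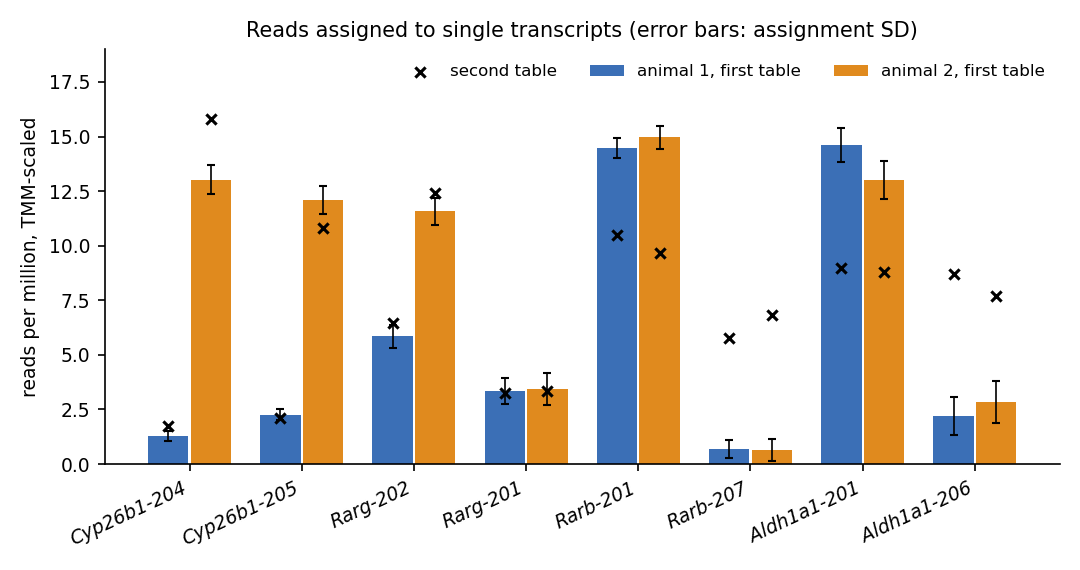
CPM, TMM-scaled, assigned to single transcripts in the first table (bars, with the SD of assignment, animal 1 and animal 2) and the second table (crosses, on the same library scale). Both Cyp26b1 transcripts and Rarg-202 are higher in animal 2, Rarg-201 is level, and the tables split Rarb and Aldh1a1 differently.

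For Rarb all 648 and 704 reads of the first table fell to 5 transcripts that start between 16575045 and 16575827, around the DR5 shown above, and none to the 2 that start at 16819005 and 16819156. In the second table the latter held 2.34 and 0 reads. The element lies between the annotated start of Rarb-201, at 16575543, and the RefSeq start at 16575476. The split within the 5 is uncertain: Rarb-201 was 82.4% and 84.0% of the gene's TPM in the first table but 49.1% and 40.3% in the second, where Rarb-207 took 30.9% and 32.7%. Exons of Top2b, on the other strand, share 1793 bases with exons of Rarb, and Top2b had 3487 and 3728 reads. No source here says that counting was by strand. The assignment SD of Rarb as a gene was 0 in both animals, so the gene tables show no Rarb reads split with Top2b.

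Aldh1a1 used 2 start regions, at 20492715 and 20601961, whose main transcripts Aldh1a1-201 and Aldh1a1-206 encode the same number of codons, 501. Aldh1a1-201 was 76.0% and 75.6% of the gene's TPM in the first table and 46.0% and 49.4% in the second. Rara reads were split between the starts at 98937698 (Rara-204, 54.4% and 48.3%) and 98960412 (Rara-202, 41.4% and 34.6%) in the first table. The second table gave 26.2% and 50.0% to Rara-204 and 22.7% and 31.8% to Rara-202, with 27.3% and 12.4% on Rara-205, so the tables do not settle this split. Rara-207 had 17.1 and 77.3 reads in the first table but 58.0 and 0.0064 in the second, so its direction is not settled. Aldh1a2 has 1 annotated transcript, with 518 codons. At the level of genes the assignment spread of all 9 was 0.

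Further retinoid genes, 75 in all, were grouped by role, 48 of them with at least 20 reads. Of these 48, 1 was past 2-fold, Dhrs9, a retinol dehydrogenase with 7 and 19 reads (ratio 2.58, 1.04 to 7.26). The share over all genes was 0.967% higher and 1.77% lower in animal 2, so a single gene is near the background. The median log2 ratio of the 48 was 0.022, and apart from Dhrs9 their ratios ran from 0.758 for Tbx5 to 1.90 for Hoxa3 (9 and 18 reads).

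**Figure D4:**
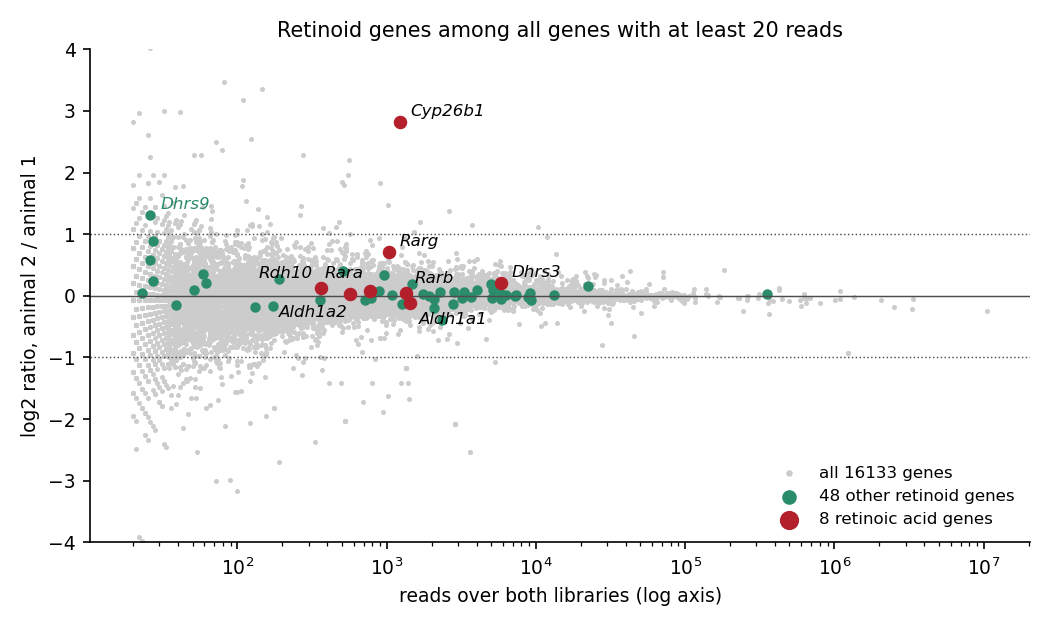
Log2 ratio between animals against total reads (log axis) for all 16133 genes with at least 20 reads (grey), 48 further retinoid genes (green) and the 8 retinoic acid genes that pass this minimum (red); 28 genes lie beyond the axis. Cyp26b1 stands at 2.82 and Rarg at 0.70, and most retinoid genes lie near 0.

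Of 16 genes of uptake, transport and storage, 9 had at least 20 reads, with a median log2 ratio of 0.081. None was past 2-fold, which is near the shares over all genes (0.967% higher and 1.77% lower in animal 2). Lipoprotein lipase, Lpl, which frees lipids and retinyl esters from particles in the blood, led at 1350 and 1595 TPM. The endothelial retinol-binding protein gene Rbp7 stood at 21.9 and 27.1 TPM. The plasma carrier gene Rbp4 had 25 and 34 reads, and Lrat, which makes retinyl esters for storage, 10 and 7.

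Of 21 retinol and retinal enzymes, 11 had at least 20 reads, with a median log2 ratio of -0.011. Retsat, a retinol saturase, was at 59.6 and 68.1 TPM, the retinal reductase gene Dhrs4 at 44.5 and 46.5, the class III alcohol dehydrogenase gene Adh5 at 29.0 and 32.6 and Rdh14 at 20.1 and 22.7 TPM. All 4 stood above Rdh10, the retinol dehydrogenase of the main pathway. Aldh1a7, a close copy of Aldh1a1, had 9 and 5 reads. In the breakdown list Por, which passes electrons to CYP enzymes, was at 21.2 and 27.7 TPM and had a ratio of 1.07 (1.01 to 1.14).

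Of the binding proteins that carry retinoic acid in the cytosol, Crabp1 had 0 reads in both animals, which allows up to 3 reads in each, and Crabp2 had 1 and 3. The list's other gene, Fabp5, a fatty acid binding protein gene named after its values were seen, had 647 and 625 reads (18.7 and 19.6 TPM, ratio 0.917, 0.82 to 1.03). All 12 receptor partners and co-regulators had at least 20 reads, with a median log2 ratio of 0.030 and ratios from 0.916 to 1.15. Rxrg was at 23.3 and 28.3 TPM, Rxra at 17.3 and 19.9 and Rxrb at 15.2 and 17.2 TPM. The corepressor gene Ncor1 stood at 47.5 and 54.4 TPM, and Tbl1xr1, a subunit of its complex, at 21.2 and 27.8 TPM.

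Of 23 known target genes of retinoic acid, 15 had at least 20 reads and none was past 2-fold, with a median log2 ratio of 0.020. Over all genes 0.967% were past 2-fold higher and 1.77% lower in animal 2, so a count of none is near the background. The transglutaminase gene Tgm2 led at 88.0 and 119 TPM (ratio 1.11, 1.08 to 1.14), followed by the cardiac factor gene Gata4 at 39.6 and 43.8 TPM. The chemerin gene Rarres2 was at 29.0 and 31.2 TPM. Cyp26a1 and Rarb, the targets with a DR5 window, had ratios of 1.11 (0.319 to 3.99, from 13 reads) and 1.03. Target genes were picked from general knowledge and many answer to other signals as well.

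Markers of 12 cell types were set beside these values, since fewer cells of a type and less RNA per cell cannot be told apart in bulk tissue. No marker gene was at 0 in either animal. All 6 cardiomyocyte markers were high, at a sum of 21120 and 24145 TPM with ratios from 0.95 to 1.07, in both libraries labelled heart. Over all lists 5 of 65 markers with at least 20 reads were past 2-fold, all higher in animal 2. Over all genes the shares were 0.967% higher and 1.77% lower in animal 2. Of the 5 adipocyte markers with at least 20 reads, 3 were past 2-fold. They were Cfd (486 and 1180 reads, ratio 2.31), Adipoq (68 and 197, 2.75) and Cidec (72 and 190, 2.51). The sum of the 6 adipocyte markers was 23.2 TPM in animal 1 and 59.8 in animal 2. Plin1 had 153 and 269 reads, Retn 21 and 27 (ratio 1.22) and Lep 7 and 6. Lymphocyte markers summed to 6.62 and 14.1 TPM, and the ratio of their summed scaled reads was 1.59. Ighm had 185 and 339 reads and Igkc 28 and 87 (ratio 2.95). The median ratio of that list was 1.17. Cd79a (42 and 33 reads, 0.746, 0.458 to 1.21) and Cd3g (11 and 4 reads, 0.0802 to 1.17) had fewer reads in animal 2. Their counting intervals included 1, and Cd3g was under 20 reads. In the mesothelial and epicardial list Slpi was past 2-fold (44 and 229 reads, 4.94), while the other 6 ran from 0.772 to 1.06 and summed to 21.6 and 22.2 TPM. The part of these cells in the Cyp26b1 and Rarg values was not tested.

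**Figure D5:**
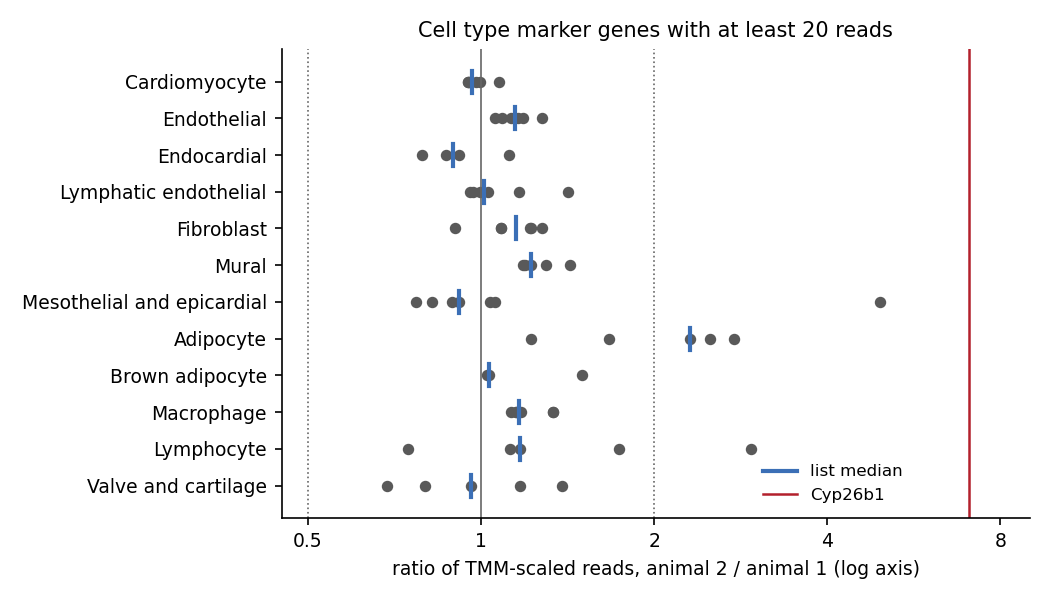
Ratio of TMM-scaled reads between animals (log axis) for each marker gene with at least 20 reads in 12 cell type lists, with the list median as a blue line and Cyp26b1 as a red line at 7.06. The 3 adipocyte genes Cfd, Adipoq and Cidec, with Slpi and Igkc, are the markers past 2-fold, and none reaches Cyp26b1.

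In the other lists no marker was past 2-fold, which is near the shares over all genes given above. Medians are of TMM-scaled ratios, whereas the TPM pairs carry the shift toward animal 2 described above (median log2 ratio 0.22). Vwf (0.917) and Prox1 (0.968) thus had scaled ratios below 1 despite higher TPM in animal 2, and Fabp4 was at 1.06. Endothelial markers had a median ratio of 1.15 (Fabp4 at 208 and 260 TPM, Aqp1 at 111 and 166), mural markers 1.22 (Rgs5 at 97.7 and 134, Acta2 at 46.3 and 67.0) and fibroblast markers 1.15 (Dcn at 133 and 169, Col3a1 at 56.1 and 80.4). Macrophage markers stood at 1.16 (C1qb at 17.3 and 23.2 TPM, C1qa at 17.0 and 22.4). Endocardial markers had a median of 0.893 (Vwf at 39.5 and 42.2 TPM, Npr3 at 11.7 and 10.4), valve and cartilage markers 0.960 (Fmod at 4.37 and 4.10, Comp at 2.39 and 2.37) and lymphatic markers 1.01 (Prox1 at 18.1 and 20.3, Lyve1 at 7.54 and 13.7). Brown adipocyte markers had a median of 1.03 (Cox8b at 1016 and 1221 TPM, Cidea at 16.8 and 20.3). Ucp1 of that list was higher in animal 2, at 158 and 249 reads (ratio 1.496, 1.221 to 1.838). The list median thus does not describe each of its markers. Cox8b and Prox1 are also expressed by heart muscle cells.

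The 5 protein-coding genes nearest to Cyp26b1 in log2 ratio, over these 2 libraries and among genes with at least 100 reads, all had lower ratios. They were Slpi (4.94), the lipoxygenase gene Alox15 (95 and 463 reads, 4.63), the inducible chaperone genes Hspa1b (3.90) and Hspa1a (3.51), which are near-identical copies that can share reads, and Pck1 (261 and 761 reads, 2.77). All 5 had to be lower, since they were drawn from genes that also had an assignment spread below 10%, where Cyp26b1 was highest. With 2 libraries, likeness is only a like ratio.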

How the data were processed

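Values were taken from the deposited tables of 2 heart libraries. The expected counts are estimated reads per gene or transcript, laid out as RSEM writes them (per the file headers), and the authors derived them from transcriptome alignments on mm10 with the M21 annotation, per the deposited readme. The second transcript table gives estimated counts, laid out as kallisto writes them (per the file headers). TPM and the percent of each gene's TPM per transcript were computed by the authors over whole tables, per the file headers. No source here gives tool versions.

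Counts were rounded, and 26248 numbered entries with no gene identifier (4 and 2 reads, 9.5e-06% and 4.76e-06% of reads) were left out. Library sizes were scaled by TMM in edgeR 4.0.16 (R 4.3.3). Ratios used scaled reads, with exact binomial 95% intervals (scipy 1.17.1) that cover counting error only, since reads carry no molecular identifiers. A prior count of 0.5 entered log2 values only. The ratio script was tested on simulated data. Genes counted as past 2-fold had at least 20 reads and a ratio of 2 or more, or 0.5 or less. Model tests need replicates of each side, and were not run. Alternatives were DESeq2 1.42.0 size factors, total or spike-in reads, other read minimums and the second table.

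The 9 genes and all lists were chosen with earlier results of these data known. Named were all 9 genes, 12 fixed relatives, retinoid genes whose mean reached 20 TPM or whose ratio passed 2-fold, the 2 highest markers per list and the 5 nearest genes; some genes under this rule are not reported here. Tbx5, Hoxa3, Fabp5 and markers outside the 2 highest of their list were named after their values were seen. Gene coordinates are GENCODE M21, and promoters are RefSeq on GRCm38.p6.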

Additional observations from a re-analysis of the deposited data

How the results depend on the processing

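The ratio of Cyp26b1 stayed inside its counting interval in all 5 alternatives, at 7.13 to 8.18, and that of Rarg at 1.65 to 1.81. Over the 9 genes 40 of 45 alternative ratios lay inside the counting interval of the reported one, and 5 did not: those on TPM for Aldh1a1, Rara, Rarb and Dhrs3, and that on total gene reads for Dhrs3 (1.22). Mean TPM moved by more than 1 SD in 13 of the 18 alternatives that keep both animals, 9 of them when TPM was taken over nuclear protein-coding genes alone (Cyp26b1 9.54, Dhrs3 124.6). Leaving out 1 of 2 animals leaves the value of the other and cannot pass 1 SD, so it tests nothing. Counts past 2-fold depend on depth: with genes of at least 1 read 2667 were higher in animal 2 and 3500 in animal 1, with 100 reads 39 and 58, and with an assignment spread under 10% 102 and 185. Among protein-coding genes, an alternative chosen after seeing the data, 118 and 76 were past 2-fold. Shares of single transcripts moved beyond the SD of the animals for 4 of 6 transcripts, while Cyp26b1-204 (49.9% in the second table) and Rarg-202 (57.2%) did not. No paired analysis was possible because there is 1 group. Depth limits Stra6, Cyp26a1, Cyp26c1, Lrat, Crabp1 and Crabp2, all under 20 reads.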

Other observations

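Genes beside Cyp26b1 on chromosome 6 were even between the hearts. The nearest protein-coding gene, Exoc6b (24.6 kb away), had 941 and 1082 reads and a ratio of 1.09, and Spr behind it had 1324 and 1444 (1.04). On the other side Dysf, the gene of the membrane repair protein dysferlin, had 5121 and 5386 reads (1.00) and Zfp638 2392 and 2535 (1.01). These 4 genes were chosen by position.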
